A study of Mus musculus with 10 samples.

Results

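The genes of glycolysis and of the response to hypoxia were followed in primary murine keratinocytes and CD8+ T cells by RNA sequencing. The members were 38 listed genes, and they were found by matching each symbol to the gene name in the deposited tables. In this way 37 of 38 were found among 25814 genes. Aldoa is listed there as Aldoa_1 and Aldoa_2 and was not counted as a member. Of the 5 groups with 2 libraries each, murine keratinocytes were cultured alone or together with CD8+ T cells, and CD8+ T cells were collected at 3 stages. The activated T cells had been stimulated for 1 d with αCD3/CD28 Abs. T cells in medium had the same activation and then spent 1 d in keratinocyte medium, whereas co-cultured T cells spent that day with keratinocytes. All T cells were splenic cells isolated with CD8 microbeads, and all T-cell groups, the controls included, had been activated. The study used keratinocytes of adult tails and of newborn mice, kept in a Ca-poor medium, and which of these sources was sequenced is not given in the sources used here. Activated T cells had been kept in X-VIVO medium and were collected 1 d earlier than both later groups. The change of medium, the end of activation and the time since then therefore cannot be told apart.

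Glycolysis breaks down glucose to pyruvate, which is either burned in mitochondria or reduced to lactate and exported. CD8+ T cells raise glucose uptake and glycolysis upon stimulation of the T-cell receptor and CD28, and proliferating keratinocytes of the basal layer are likewise known as glycolytic cells. Hypoxia-inducible factors (HIFs) are transcription factors whose α subunit is marked for destruction by prolyl hydroxylases when oxygen is available. Many genes of glycolysis are HIF targets, and T-cell receptor signals can raise HIF-1α also under normal oxygen.

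HIF binds to response elements with the core ACGTG. To show where such letters stand, the 250 bases before the start of transcription were taken for 6 members from the RefSeq promoters of the GRCm38.p6 build. Of these 6 members, Hk2, Ldha, Slc16a3, Egln3 and Tpi1 were lower in the later T cells and Pgk1 was not called. They were picked with these results known, to show genes with and without the motif. Capitals mark ACGTG on either strand, which reads CACGT on the opposite strand, and a palindrome CACGTG is marked and counted once.
Hk2, chr6:82774455-82774704, minus strand: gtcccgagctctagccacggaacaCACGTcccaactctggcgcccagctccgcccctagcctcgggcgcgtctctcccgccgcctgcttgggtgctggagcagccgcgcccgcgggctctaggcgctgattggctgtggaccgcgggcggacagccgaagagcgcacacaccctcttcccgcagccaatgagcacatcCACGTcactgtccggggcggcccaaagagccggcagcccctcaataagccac
Ldha, chr7:46845554-46845803, plus strand: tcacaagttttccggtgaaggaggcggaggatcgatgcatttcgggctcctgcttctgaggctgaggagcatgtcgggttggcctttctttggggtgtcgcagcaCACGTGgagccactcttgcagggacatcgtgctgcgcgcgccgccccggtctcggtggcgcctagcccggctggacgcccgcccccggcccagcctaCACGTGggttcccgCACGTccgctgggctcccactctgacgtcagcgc
Slc16a3, chr11:120948817-120949066, plus strand: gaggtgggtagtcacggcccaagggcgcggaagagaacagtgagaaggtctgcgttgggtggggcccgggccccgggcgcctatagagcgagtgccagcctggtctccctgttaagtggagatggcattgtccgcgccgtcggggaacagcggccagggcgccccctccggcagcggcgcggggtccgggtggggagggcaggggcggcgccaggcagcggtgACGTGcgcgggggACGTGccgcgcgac
Egln3, chr12:54203875-54204124, minus strand: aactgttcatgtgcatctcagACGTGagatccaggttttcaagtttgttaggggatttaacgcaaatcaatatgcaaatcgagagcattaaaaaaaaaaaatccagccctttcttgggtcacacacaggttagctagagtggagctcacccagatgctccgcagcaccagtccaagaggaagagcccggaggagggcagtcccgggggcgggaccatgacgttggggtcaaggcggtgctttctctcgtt
Pgk1, chrX:106186850-106187099, plus strand: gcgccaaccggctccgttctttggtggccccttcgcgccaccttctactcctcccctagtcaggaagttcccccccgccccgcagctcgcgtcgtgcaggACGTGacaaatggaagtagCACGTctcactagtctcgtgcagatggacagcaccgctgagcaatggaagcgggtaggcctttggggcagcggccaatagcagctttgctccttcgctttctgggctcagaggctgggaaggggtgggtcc
Tpi1, chr6:124814159-124814408, minus strand: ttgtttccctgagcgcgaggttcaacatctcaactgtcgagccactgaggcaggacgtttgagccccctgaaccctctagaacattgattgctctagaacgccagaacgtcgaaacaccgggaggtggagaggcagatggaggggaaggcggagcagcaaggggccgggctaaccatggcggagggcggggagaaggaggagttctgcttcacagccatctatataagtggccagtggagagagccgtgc
The Hk2, Slc16a3 and Pgk1 windows hold 2 marked stretches each, the Ldha window holds 3, the Egln3 window 1, and the Tpi1 window none. Of the 35 members with a promoter in the table, 18 (51.4%) hold the motif, against 16.6% of all 32851 promoters. Among the 20 members that were lower in later T cells it was found in 12, and among the other 15 in 6. The members were listed as genes of glycolysis and hypoxia, many of them known HIF targets, so their higher share is no test of HIF control. For each member only the start nearest to the deposited gene start was used, whereas the 32851 promoters are all those in the RefSeq table. A match describes letters and is no proof of a bound site.

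The libraries held between 12864931 and 18019609 reads on exons. Levels are given as RPKM, reads scaled by exon length and library size, for each of the 2 libraries of a group in the order of their replicates. Changes are log2 fold changes of the exon reads in edgeR's quasi-likelihood test, and a gene was called at a Benjamini-Hochberg adjusted p under 0.05 over all genes tested. With 2 libraries a group, p-values measure only the spread between these libraries, which may be technical. In keratinocyte libraries the summed RPKM of 12 keratinocyte markers was 23655 to 27332, led by Krt14, Krt5, Krt6a and Krt17, with Krt15, Krt1 and Krt10 low. Transcripts of other cells were read as well. In T-cell libraries, Cd4 stood at 16.8 and 102 RPKM after activation and Cd8b1 at 277 and 141 RPKM. Summed T-cell markers (7 of 7 genes measured) reached 1181 to 1499.9 RPKM in activated and 1863 to 2704 RPKM in later T cells, and none of them was at 0. The summed 5 erythroid markers ranged from 516 to 1441 RPKM in activated and from 398 to 1589 RPKM in later T cells, and the 5 B-cell markers from 29.9 to 31.8 and from 16.6 to 92.5 RPKM. Krt14, a keratin of basal keratinocytes, stood at 61.6 and 16.8 RPKM in co-cultured T cells and at most at 1.06 RPKM in the other T-cell libraries. The part of these other cells in the results on T cells was not tested.

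The members took up 2.36% and 2.40% of all exon reads in activated T cells. In T cells in medium the share was 0.803% and 0.781%, and in co-cultured T cells 0.835% and 0.768%. The later libraries thus lay far below both activated libraries, and medium and co-culture overlapped. When both later groups were compared with activated T cells, 20 of 37 members were lower and none was higher. Over all 11863 genes tested, 9.4% were lower and 5.64% higher. The members' median log2 fold change was -1.36, that of all genes tested -0.03. Scaling by library size alone shifted the latter to -0.16 and gave 23 lower members, against 1300 lower genes over all tested. At an unadjusted p under 0.05 edgeR counted 25 members lower and 2 higher, against 2101 lower and 1636 higher of all 11863 genes. DESeq2 called 23 members lower and 1 higher, against 1502 lower and 1352 higher over all genes. With limma on log2(RPKM + 1) 23 members were lower and none higher, against 1460 lower and 771 higher over all genes. In 27 of 37 members all 4 later libraries lay below both activated libraries in RPKM, as did 27.3% of all genes tested. Ldhb and Ddit4 lay above in all 4, as did 16.7% of all genes tested. In bulk RNA, fewer cells of a type and less RNA per cell cannot be told apart.

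**Figure D1:**
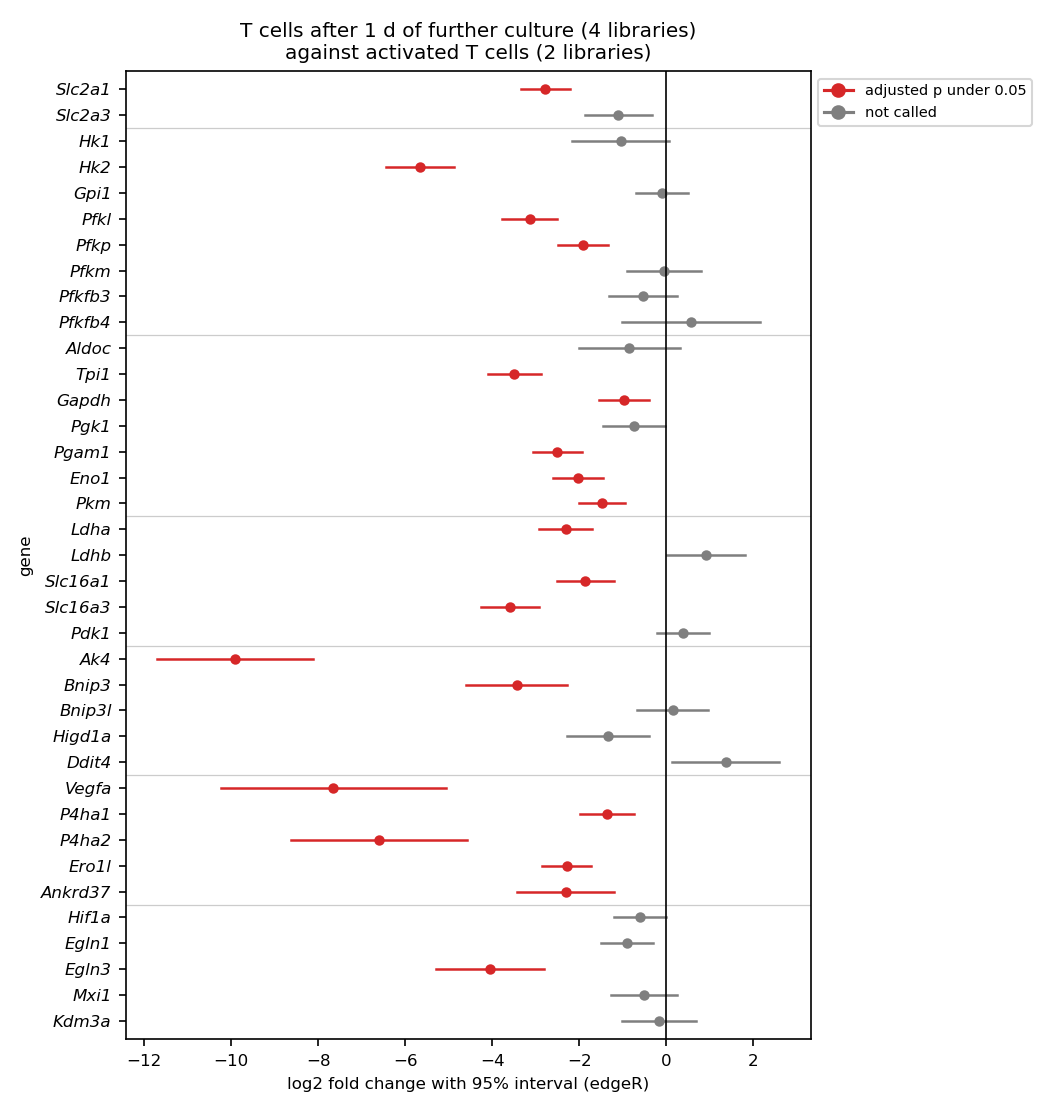
Log2 fold change (x axis) of the 37 members (y axis, grouped by role) between T cells after 1 d of further culture (4 libraries) and activated T cells (2 libraries). Points are edgeR estimates, bars their 95% intervals, and red marks the 20 members with an adjusted p under 0.05, all of which lie left of 0.

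Slc2a1 encodes GLUT1, the glucose transporter that activated T cells put on their surface. Its level was 70.4 and 67.2 RPKM in activated T cells, 9.05 and 9.04 in medium and 8.18 and 9.33 after co-culture. The 4 later libraries differed among themselves by little and lay far below the activated ones. The log2 fold change was -2.77 ± 0.25 (SE) with an adjusted p of 0.00200, a 7.73-fold difference of the mean RPKM. Slc2a3, which encodes GLUT3, went from 30.8 and 40.6 RPKM to 11.6 and 12.3 in medium and 13 and 23.2 after co-culture. All its later libraries lay below the activated ones, but the difference did not pass the threshold (log2 fold change -1.10, 95% interval -1.87 to -0.33, adjusted p = 0.0635). It was called by DESeq2 and limma. Slc2a1 made up 69.6% and 62.4% of the summed RPKM of both transporters in activated T cells and between 28.7% and 43.9% in the later libraries.

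Of the 8 members of upper glycolysis, Hk2, Pfkl and Pfkp fell. Hk2 encodes the inducible hexokinase, which traps glucose in the cell by phosphorylation. It showed 39.03 and 30.9 RPKM in activated T cells, 0.640 and 0.621 in medium and 0.847 and 0.367 after co-culture. None of the later libraries reached 1 RPKM, and the mean was 56.5-fold lower (log2 fold change -5.66 ± 0.34 (SE), adjusted p = 0.000510). Hk1, the constitutive hexokinase, was at 37.98 and 21.9 RPKM in activated T cells and at 6.10 to 20.2 RPKM in the later libraries. Its replicates spread widely and the change was not called (adjusted p = 0.186, interval -2.17 to 0.08). As a share of the RPKM of both hexokinases, Hk2 stood at 50.7% and 58.5% in activated T cells and at 3.07% to 7.98% afterwards. Phosphofructokinase commits sugar to glycolysis, and its liver-type and platelet-type subunits come from Pfkl and Pfkp. Pfkl was at 86.2 and 58.4 RPKM in activated T cells, at 8.55 and 7.61 in medium and at 8.27 and 4.97 after co-culture (-3.14 ± 0.28 (SE) on the log2 scale, adjusted p = 0.00200). Pfkp was at 117 and 105, 29 and 20.05 and 34.1 and 22.6 RPKM in these groups, a smaller fall of -1.91 ± 0.25 (SE) (adjusted p = 0.00422). For both genes the groups did not overlap. The muscle-type subunit Pfkm stayed at 2.87 to 4.80 RPKM in all 6 libraries and was not called (interval -0.89 to 0.79). Gpi1, the isomerase between hexokinase and phosphofructokinase, had the highest mean RPKM of this group over the 10 libraries. It was measured at 313 and 279 RPKM in activated T cells, 293 and 201 in medium and 299 and 198 after co-culture. Its groups overlapped and the change was not called (interval of the log2 fold change -0.70 to 0.50). Pfkfb3 and Pfkfb4 make the sugar phosphate that switches phosphofructokinase on. Pfkfb3 stood at 6.37 and 5.00 RPKM and then at 2.29 to 4.07, and Pfkfb4 was at most at 1.41 RPKM in every T-cell library. Neither was called (adjusted p = 0.322 and 0.623 by edgeR).

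**Figure D2:**
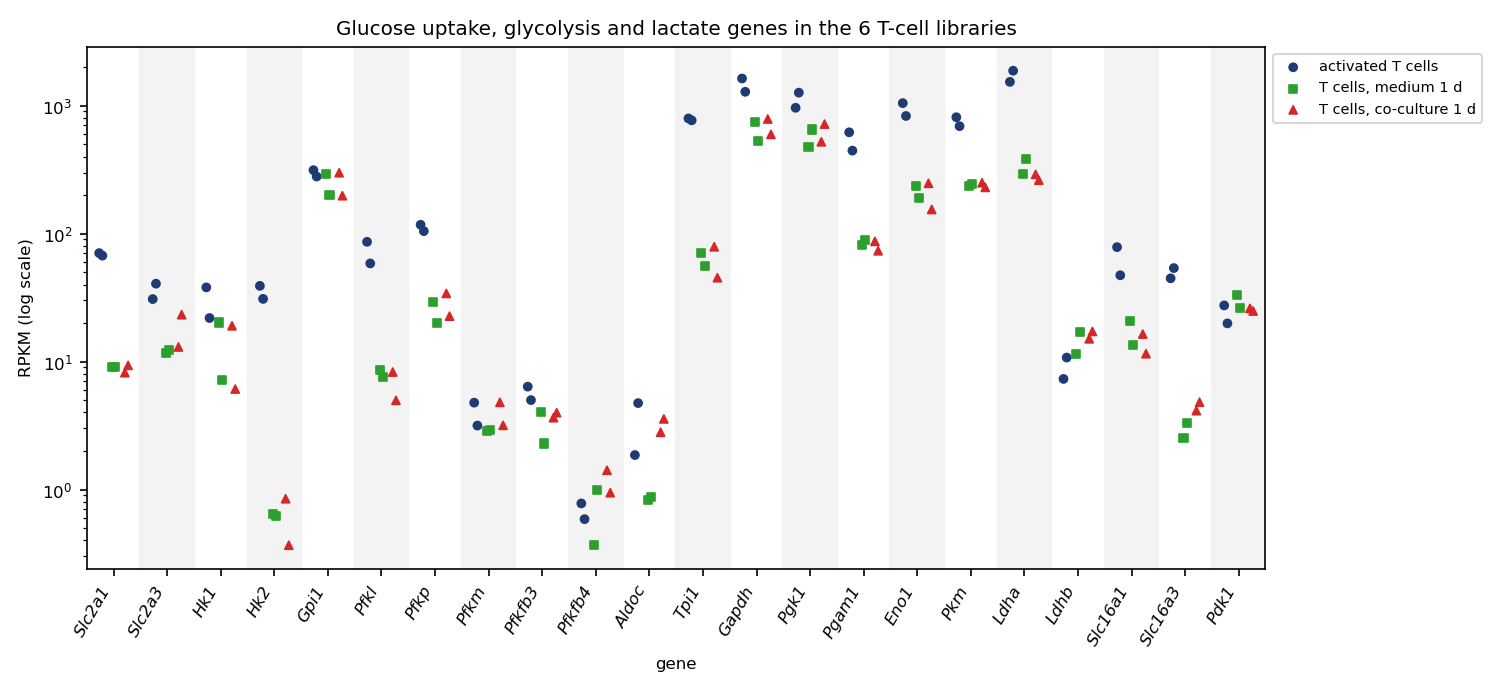
RPKM (y axis, log scale) of the members of glucose uptake, glycolysis and lactate metabolism (x axis) in the 6 T-cell libraries, 1 symbol for each library. Activated T cells lie above both later groups for most genes, with the widest gap at Hk2, whereas activated and later libraries overlap at Gpi1, Pfkm, Pfkfb4, Aldoc and Pdk1.

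In lower glycolysis 5 of 7 members fell. Tpi1 encodes triosephosphate isomerase, which brings both products of the split sugar onto one path. Its RPKM was 794 and 767 in activated T cells, 70.5 and 55.5 in medium and 78.9 and 45.2 after co-culture. This was a 12.5-fold lower mean in a very abundant mRNA (log2 fold change -3.49 ± 0.26 (SE), adjusted p = 0.00143). Gapdh, the dehydrogenase that follows and a common reference gene, was at 1630.1 and 1282 RPKM and then at 747 and 533 in medium and 786 and 596 after co-culture. Its log2 fold change was -0.97 ± 0.25 (SE) with an adjusted p of 0.0373. Only 2.94% of its exon reads mapped uniquely, and with unique reads alone, as well as without any 1 of the 6 libraries, the call was lost. Pgk1, which makes the first ATP of the pathway, remained abundant with 962 and 1263 RPKM in activated T cells, 477 and 650.5 in medium and 521 and 717 after co-culture. All later libraries lay below both activated ones, but the change was not called (-0.74, interval -1.45 to -0.02, adjusted p = 0.151). Pgam1, phosphoglycerate mutase, showed 619 and 445 RPKM before and 73.4 to 89.6 RPKM in the later libraries (log2 fold change -2.51 ± 0.24 (SE), adjusted p = 0.00251). Eno1, the enolase of most tissues, went from 1046 and 830.2 to 154 to 247 RPKM. Its fall of -2.02 on the log2 scale (adjusted p = 0.00368) rests mostly on reads with several matches, since 23.0% were unique. Pkm encodes a pyruvate kinase, the enzyme that ends the pathway. With 812 and 691 RPKM in activated T cells and 229.5 to 249 RPKM later, it was called as well (-1.47, adjusted p = 0.00697). Aldoc, an aldolase of the brain, was low in all T-cell libraries (0.827 to 4.74 RPKM) and was not called. The entry Aldoa_1, the main aldolase and no member by its name, fell by 1.34 on the log2 scale (adjusted p = 0.0162).

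Lactate dehydrogenase A reduces pyruvate to lactate. Ldha was at 1533 and 1874 RPKM in activated T cells, the highest mean of all members there, at 293 and 384 in medium and at 289.9 and 261 after co-culture. The mean was 5.55-fold lower in the later libraries (log2 fold change -2.31 ± 0.27 (SE), adjusted p = 0.00292). Ldhb, the subunit that favors the reverse reaction, showed 7.31 and 10.7 RPKM and then 11.5 to 17.2 RPKM. Although all later libraries lay above both activated ones, its change of 0.92 was not called (interval 0.02 to 1.82, adjusted p = 0.153). Both monocarboxylate transporters fell. Slc16a3 encodes MCT4, the exporter of lactate in highly glycolytic cells. It stood at 44.7 and 53.8 RPKM in activated T cells, at 2.54 and 3.32 in medium and at 4.13 and 4.81 after co-culture (-3.59 ± 0.29 (SE) on the log2 scale, adjusted p = 0.00180). Slc16a1, which encodes MCT1, was at 78.4 and 47.2 RPKM and then at 11.5 to 20.7 RPKM. Its log2 fold change was -1.86 (adjusted p = 0.00669), and without replicate 1 of the activated T cells the adjusted p was 0.0628. Pdk1 encodes a kinase that closes the entry of pyruvate into mitochondria and is a classical HIF target. Its RPKM was 27.5 and 19.9 in activated T cells, 32.9 and 26.3 in medium and 26.02 and 24.8 after co-culture. These groups overlapped, and the change was not called (interval -0.21 to 0.98).

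Among HIF targets at mitochondria and in cell survival, 2 of 5 fell. Ak4 encodes a mitochondrial adenylate kinase. It was at 14.6 and 15.2 RPKM, or 1075 and 963 reads, in activated T cells, without any read in both libraries in medium, and at 2 and 11 reads after co-culture. Against a floor of 3 reads over the 2 libraries in medium, its level there was at least 712-fold lower than in activated T cells. The call over both later groups was made with an adjusted p of 0.00200. Bnip3 marks mitochondria for autophagy. Its level differed between the activated libraries, with 55.9 and 159.9 RPKM, but was 5.62 and 8.62 in medium and 7.33 and 14.6 after co-culture. The log2 fold change was -3.44 ± 0.51 (SE) (adjusted p = 0.00562), and 62.1% of its reads were unique. The related Bnip3l showed 33.7 and 72.7 RPKM in activated T cells and 50.4 to 54.8 RPKM in the later libraries, which lay between both (interval of the log2 fold change -0.66 to 0.96). Higd1a, a small protein of the respiratory chain, was at 32.2 and 56.1 RPKM and then at 9.67 to 21.2 RPKM, below both activated libraries. It missed the threshold (adjusted p = 0.0661) and was called by DESeq2 and limma. Ddit4 encodes REDD1, an inhibitor of mTORC1. Its values were higher in all later libraries, with 40.9 and 135 RPKM in activated T cells, 164 and 224 in medium and 162 and 263 after co-culture. Its change of 1.37 was not called by edgeR (adjusted p = 0.125, interval 0.13 to 2.61), but it was called by DESeq2, without the filter on low counts and without replicate 2 of the activated T cells. Replicate 2 was also the activated library with more Bnip3, Bnip3l, Higd1a, Egln3 and Cd4.

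**Figure D3:**
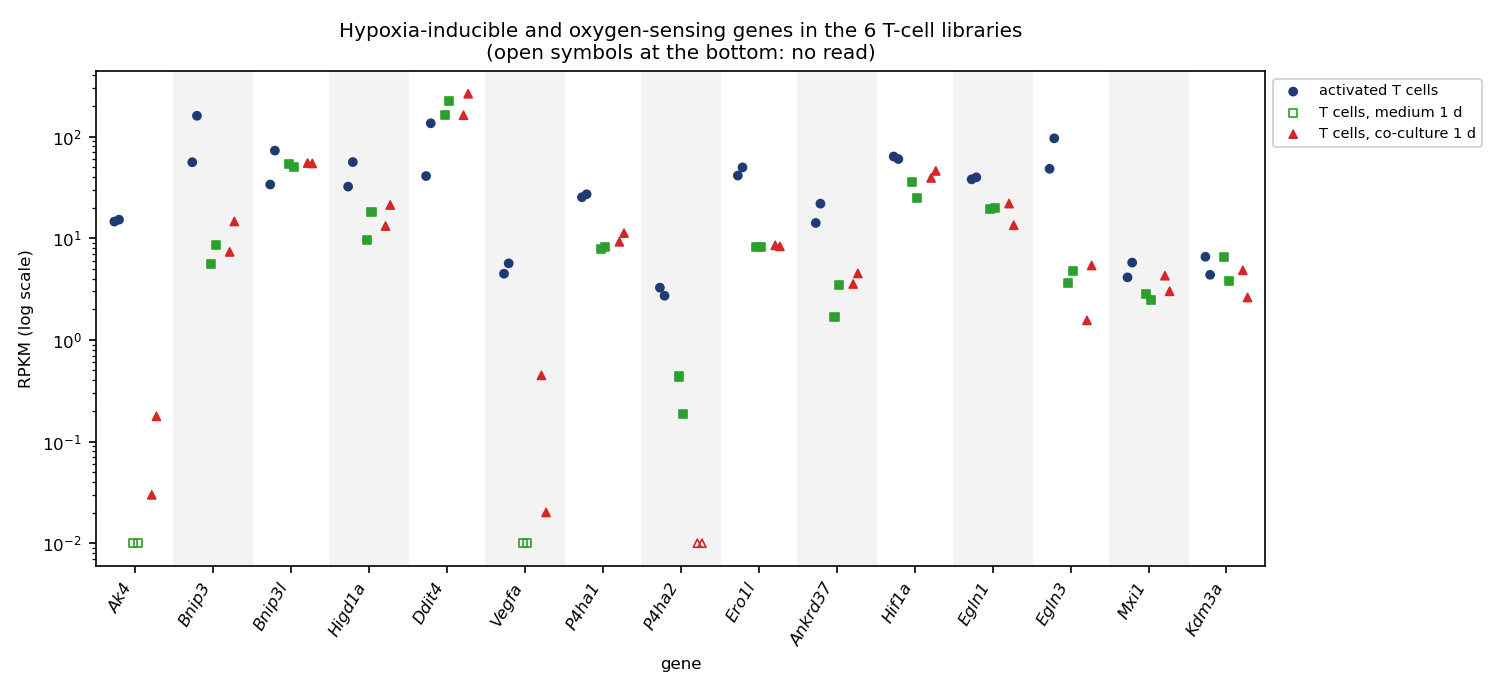
RPKM (y axis, log scale) of the HIF targets and oxygen-sensing members (x axis) in the 6 T-cell libraries. Open symbols at 0.01 stand for libraries without a read, which are those of Ak4 and Vegfa in medium and of P4ha2 after co-culture, and Ddit4 is the gene with all later libraries above the activated ones.

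All 5 members of the group with angiogenic, collagen and redox functions fell. Vegfa, the main angiogenic factor, had 265 and 287 reads in activated T cells (4.47 and 5.66 RPKM), none in medium, and 24 and 1 reads after co-culture. In medium its level was at least 193-fold lower, again against 3 reads over both libraries (adjusted p over both later groups 0.00679). The co-cultured library with 24 reads (0.447 RPKM) is also the one with more Krt14 and with 272 against 141 RPKM of summed keratinocyte markers. Co-cultured keratinocytes held 27332 and 27206 RPKM of these markers. Keratinocytes alone held 10.5 and 11.6 RPKM of Vegfa, and those after co-culture 6.93 and 3.53. The part of keratinocyte RNA in the Vegfa reads was not tested. P4ha1 and P4ha2 encode prolyl hydroxylases of collagen. P4ha1 was at 25.3 and 27.05 RPKM in activated T cells, 7.85 and 8.17 in medium and 9.21 and 11.2 after co-culture (-1.36, adjusted p = 0.0159). P4ha2 had 171 and 122 reads in activated T cells, 21 and 10 in medium and none after co-culture. After co-culture its level was at least 91.9-fold lower (adjusted p over both later groups 0.00531). Ero1l, an oxidase that forms disulfide bonds in the endoplasmic reticulum, had the highest mean RPKM of these 5 over the 10 libraries, although P4ha1 was above it in 2 later libraries. It was measured at 41.3 and 49.7 RPKM, then at 8.18 and 8.20 in medium and 8.50 and 8.30 after co-culture. The later libraries were nearly equal, and the log2 fold change was -2.29 ± 0.25 (SE) (adjusted p = 0.00279). Ankrd37, a small ankyrin-repeat gene induced by HIF, went from 14.1 and 21.9 to 1.68 to 4.50 RPKM (-2.31, adjusted p = 0.0194). Without either of the activated libraries the calls of Ankrd37 and P4ha1 were lost, and without replicate 1 in medium that of P4ha1. The highest adjusted p was then 0.0933 for Ankrd37 and 0.0829 for P4ha1.

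Of the 5 members in oxygen sensing, Egln3 fell. It encodes the prolyl hydroxylase PHD3, which is itself induced by HIF. Its level was 48.1 and 95.9 RPKM in activated T cells, 3.65 and 4.79 in medium and 1.55 and 5.39 after co-culture. In spite of the spread between the activated libraries the change was called (-4.05 ± 0.54 (SE) on the log2 scale, adjusted p = 0.00423). Egln1, which encodes PHD2, the hydroxylase that acts on HIF-1α at normal oxygen, was at 37.9 and 39.7 RPKM and then at 13.4 to 21.9 RPKM. It just missed the threshold (interval -1.51 to -0.30, adjusted p = 0.0553) and was called by DESeq2 and limma. Hif1a itself, whose protein is controlled mostly by destruction, had the highest mean RPKM of these 5 over the 10 libraries, while Egln3 had the highest mean in activated T cells. It showed 63.6 and 60.03 RPKM in activated T cells, 36.1 and 25.01 in medium and 39.1 and 45.9 after co-culture. All later libraries lay below both activated ones, but the change was not called (-0.61, interval -1.20 to -0.01, adjusted p = 0.152). Of the Hif1a reads, 34.0% were unique. Mxi1, a repressor related to the Mad proteins, and Kdm3a, a histone demethylase, stayed at most at 6.57 RPKM in all T-cell libraries and were not called.

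Each later group was also compared with activated T cells on its own. Both comparisons share the activated libraries. In medium 18 members were lower and none higher, against 4.22% lower and 2.32% higher of all genes tested. After co-culture 16 members were lower and none higher, against 5.72% lower and 4.59% higher of all genes, or 762 lower and 396 higher genes when scaled by library size alone, against 678 and 544. The members' median log2 fold change was -1.56 in medium and -1.16 after co-culture, also with the genes without reads set to their bounds. Some members called after co-culture lost their call when single libraries were left out. The count in medium was also sensitive to single libraries. It dropped to 10 without replicate 1 of the activated T cells, and to 4 and 3 without replicate 1 or 2 in medium, where the lone library was assumed to vary like the other groups. Over all genes the lower ones dropped from 501 to 34, 22 and 8 in these fits. Hk2, Slc16a3 and Ak4 kept their calls in all of these. Hk2 had nearly the same log2 fold change in both comparisons, -5.64 and -5.67, as had Slc2a1 (-2.78 and -2.77) and Tpi1 (-3.49 and -3.48).

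To see the effect of keratinocytes at equal time, co-cultured T cells were compared with T cells in medium. No member was called, and 0.261% of all genes were. At an unadjusted p under 0.05, edgeR counted 4 members, namely P4ha2, Ak4, Vegfa and Aldoc, beside 409 of all 11863 genes. DESeq2 called 1 member (P4ha2, lower after co-culture), beside 79 higher and 8 lower over all genes, and limma called no member. P4ha2, Ak4 and Vegfa are those without reads in 1 of both groups, and Ak4 and Vegfa each had most of their reads after co-culture in 1 library. Aldoc showed 0.827 and 0.876 RPKM in medium and 2.80 and 3.56 after co-culture, with a log2 fold change of 1.96 (interval 0.52 to 3.39, adjusted p = 0.879). It was higher in keratinocytes (9.45 and 18.7 RPKM alone), and the co-cultured T cells also hold keratins. Their summed keratinocyte markers stood at 272 and 141 RPKM, against 27332 and 27206 RPKM in co-cultured keratinocytes. The part of keratinocyte RNA in the Aldoc values was not tested. The intervals of Slc2a1 (-0.67 to 0.69), Tpi1 (-0.71 to 0.73), Ldha (-0.99 to 0.47) and Pkm (-0.60 to 0.68) included 0. Differences within these intervals were not resolved with 2 libraries a group.

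Keratinocytes and activated T cells differed in their levels of several isoforms. When keratinocytes alone were compared with activated T cells, 5 members were higher and 11 lower in keratinocytes. Among all 13394 genes tested in this fit of 10 libraries, 22.5% were higher and 13% lower, with a median of 0.14 on the log2 scale against -0.57 for the members. Scaling by library size alone moved the median of all genes to -0.02 and their split from 3014 higher and 1740 lower to 2708 and 2143, and it gave 5 higher and 15 lower members. Of the glucose transporters, Slc2a3 showed 0.681 and 2.80 RPKM in keratinocytes and stood at 30.8 and 40.6 in activated T cells (-4.21 ± 0.82 (SE) on the log2 scale, adjusted p = 0.00515), whereas Slc2a1 was at 59.4 and 89.5 and 70.4 and 67.2 RPKM and was not called (interval -0.53 to 1.07). The low Slc2a3 values of keratinocytes moved with T-cell RNA in these libraries. Cd3d reached 18.1 and 67.1 RPKM without T cells and 19.0 and 115 RPKM with them, and Cd8a at most 1.16 RPKM. The 7 T-cell markers, none of them at 0, summed to 98.2 and 390 RPKM alone and to 127 and 694 RPKM after co-culture. Their part in the Slc2a3 values was not tested.

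Of the lactate genes, Slc16a1 (5.25 and 6.37 against 78.4 and 47.2 RPKM), Slc16a3 (14.4 and 9.99 against 44.7 and 53.8), Ldha (451 and 492 against 1533 and 1874) and Pdk1 (11.3 and 9.46 against 27.5 and 19.9) were lower in keratinocytes. Ldhb was higher, with 20.7 and 27.8 against 7.31 and 10.7 RPKM (1.57 on the log2 scale, adjusted p = 0.0231). Hk2 was lower in keratinocytes (-1.81, adjusted p = 0.0122), although with 8.97 and 8.92 RPKM it was well above the later T cells. Pfkp was lower too (17.5 and 24.2 RPKM), and Pfkl led among the phosphofructokinases of keratinocytes with 65.6% and 57.1% of their RPKM, while Pfkp led in activated T cells with 56.3% and 62.9%. Pfkfb3 (22.96 and 13.2 RPKM), Pfkfb4 (2.56 and 3.97), Aldoc (9.45 and 18.7) and Mxi1 (12.2 and 11.3) were the other members with higher levels in keratinocytes. Tpi1, P4ha1, Ankrd37 and Egln1 completed those with lower levels. These calls rest on few libraries. Without replicate 1 or 2 of keratinocytes alone only 1 member was higher and 5 lower. Without replicate 1 of the activated T cells 1 was higher and 8 lower, and without replicate 2 these numbers were 3 and 7. Over all genes, 1739 and 2026 were higher and 655 and 1058 lower without replicate 1 or 2 of keratinocytes alone.

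**Figure D4:**
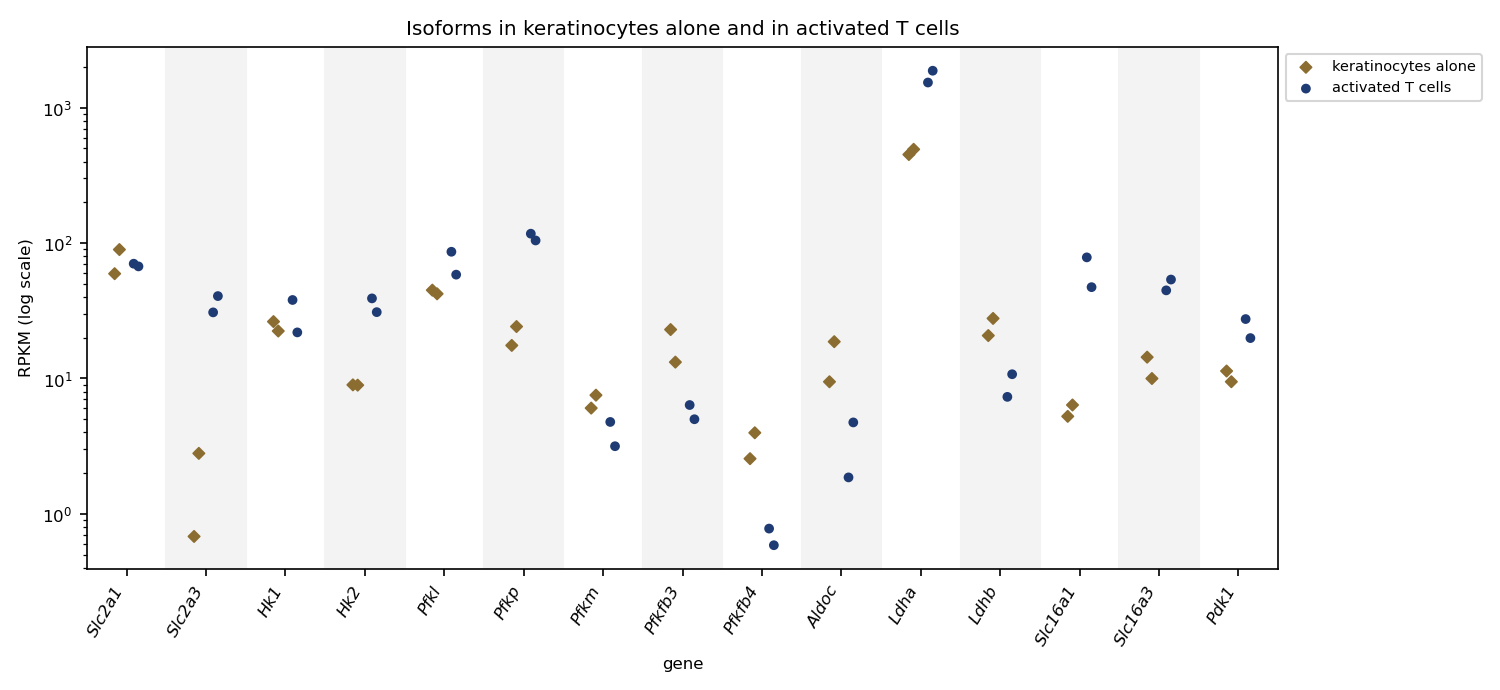
RPKM (y axis, log scale) of glycolysis isoforms and their transporters (x axis) in keratinocytes alone and in activated T cells, 2 libraries each. Slc2a3, Slc16a1 and Pfkp lie clearly higher in T cells, Pfkfb4, Pfkfb3, Aldoc and Ldhb higher in keratinocytes, and Slc2a1 and Hk1 overlap.

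In keratinocytes, the comparison of both groups asks what co-culture with CD8+ T cells did to these genes. No member was called, nor was any of the 12515 genes tested (0%). By edgeR no member had an unadjusted p under 0.05, and neither DESeq2 nor limma called any. Over all genes 901 had an unadjusted p under 0.05, and DESeq2 called 88 higher and 98 lower genes. Without replicate 1 of the co-culture edgeR called 107 higher and 1057 lower genes, and without replicate 2 it called 21 higher, but no member was called when any 1 library was left out. The members' median log2 fold change was 0.23, that of all genes 0.02. The widest difference towards higher values was that of Ldha, with 451 and 492 RPKM alone and 683 and 1329 after co-culture. Both co-cultured libraries were above the others, but they differed by more than the means did, and the interval of the log2 fold change was -0.12 to 2.50. Pgk1 showed 505 and 737 RPKM alone and 736 and 1489 after co-culture, where replicate 1 lay below replicate 2 of keratinocytes alone (interval -0.47 to 2.34). In both genes replicate 2 of the co-culture stood apart, which is also the library with the most Cd3d, and the part of T-cell RNA in it was not tested. Slc16a3 and Slc16a1 were higher in both co-cultured libraries, with 21.1 and 16.5 RPKM against 14.4 and 9.99 and 8.43 and 9.64 against 5.25 and 6.37, and their intervals were -0.10 to 1.49 and -0.12 to 1.55. Lower values were found for Vegfa (10.5 and 11.6 RPKM alone, 6.93 and 3.53 after co-culture, interval -2.07 to 0.00), Egln3 (22.6 and 35.01 and 17.5 and 16.2, interval -1.61 to 0.18) and Mxi1 (12.2 and 11.3 and 8.10 and 4.08, interval -1.88 to 0.09). The members that fell in T cells were not called here. Hk2 was at 8.97 and 8.92 RPKM alone and at 10.3 and 4.15 after co-culture, and Slc2a1 at 59.4 and 89.5 and 71.9 and 102.

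**Figure D5:**
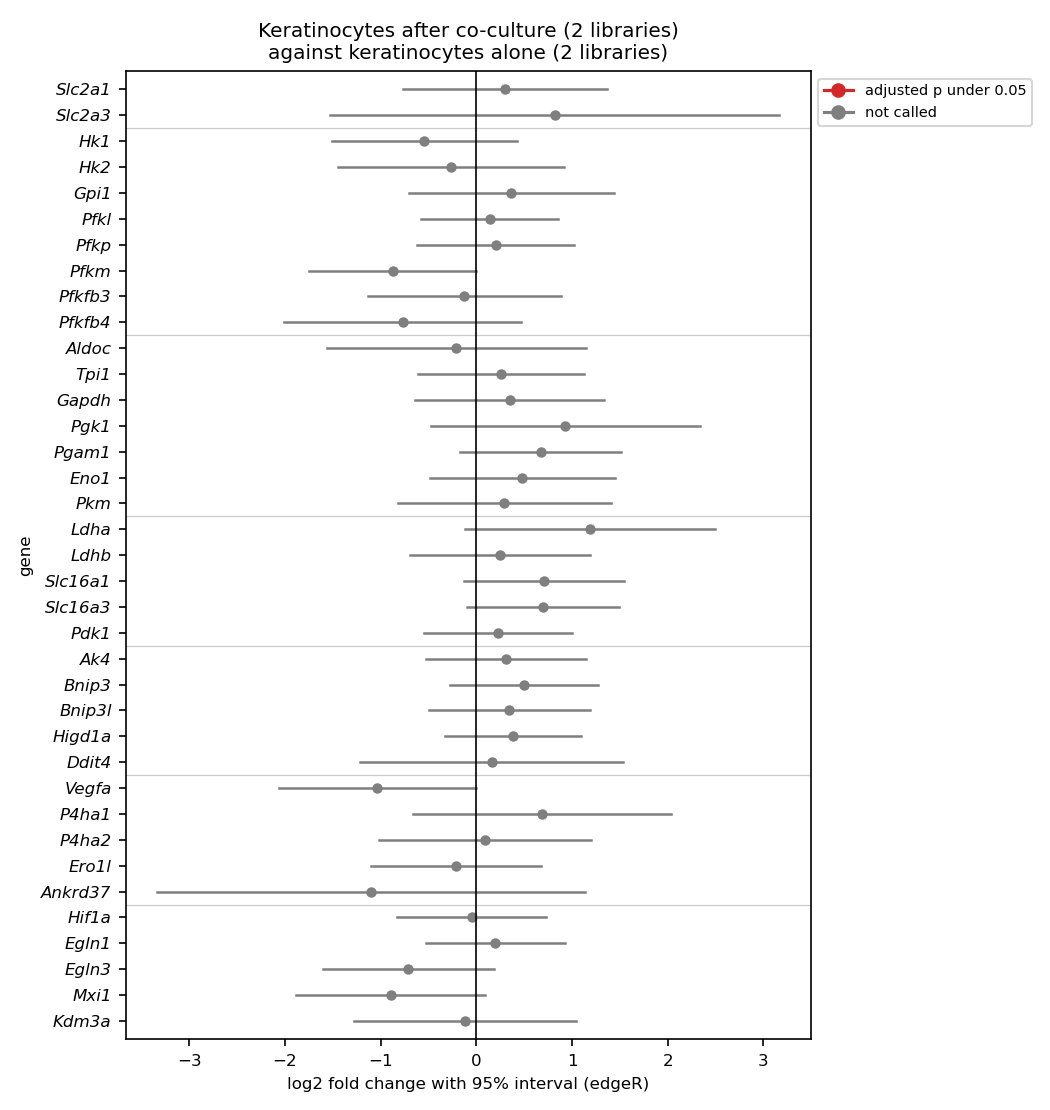
Log2 fold change (x axis) of the 37 members (y axis, grouped by role) between keratinocytes after co-culture and keratinocytes alone, 2 libraries each. Points are edgeR estimates and bars their 95% intervals, all of which include 0.

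The difference of the co-culture effect between keratinocytes and T cells was tested in 8 libraries. It was called for no member and for 0.576% of all genes. By edgeR 6 members had an unadjusted p under 0.05, as had 932 of all 13202 genes tested. DESeq2 called P4ha2 and Vegfa, both without reads in 1 group of T cells, and limma called none. Over all genes DESeq2 called 60 higher and 293 lower. For Ldha the difference was 1.45 on the log2 scale (interval -0.02 to 2.93, adjusted p = 0.710).

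The members are only a sample of the pathway, and 3 further lists were counted in the comparison of later with activated T cells, where 9.4% of all genes fell and 5.64% rose. Of other glycolysis isoforms and branch genes, 19 were tested, 3 fell and 1 rose. Gpd2, the mitochondrial enzyme of the glycerol phosphate shuttle, fell from 13.01 and 6.70 RPKM to 0.725 to 1.82 RPKM (-3.02 ± 0.42 (SE) on the log2 scale, adjusted p = 0.00474), as did Tigar and Pgm2. Slc2a9, a transporter of urate, rose from 1.01 and 0.529 to 3.06 to 4.54 RPKM (adjusted p = 0.0114). The median of this list was -0.21, closer to 0 than that of the members. Of other HIF-inducible genes, 39 were tested, 11 fell and 5 rose, with a median of -0.40. Car12, a carbonic anhydrase, and Tfrc, the transferrin receptor, were among those that fell, and Tfrc went from 90.6 and 33.6 to 2.56 to 7.54 RPKM. Ccng2, a cyclin of resting cells, rose from 4.46 and 15.99 to 33.6 to 50.1 RPKM, and Klhl24 and Trp53inp1 rose as well. Of 10 HIF subunits and regulators tested, Hspa9 and Siah2 fell and none rose, with a median of 0.31. The 1 higher gene of 19 in the first of these lists is near the share over all genes. Arnt, the partner of HIF-1α, was at 5.18 and 4.84 RPKM in activated and at 3.95 to 7.42 RPKM in later T cells.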

How the data were processed

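RNA was measured in 10 libraries, and groups were taken from the labels. The authors prepared poly(A) libraries, sequenced single-end reads and mapped them to GRCm38 with the CLC Genomics Workbench at its default settings. The annotation release is not given in the sources used here. The authors deposited for each gene counts of total and of uniquely mapped exon reads, without normalization, and RPKM values scaled by exon length and library size, written with a decimal comma. Reads with several matches were counted, so genes with near-identical copies (Gapdh, Eno1, Hif1a, Bnip3, Pgam1) are uncertain. Strand was not stated. The labels give 1 d of co-culture, the series text 1 h, and the labels name keratinocyte medium where the paper describes a mix with X-VIVO.

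Log2 fold changes were computed from counts of total exon reads in R 4.3.3 by the quasi-likelihood test of edgeR 4.0.16, after filterByExpr and TMM scaling and with Benjamini-Hochberg adjustment over all genes tested, and tested on simulated data. The 6 T-cell and the 4 keratinocyte libraries were fitted apart, all 10 together for the cell types and 8 for the difference of effects. Intervals are 95% intervals of the fit. Depth was 12864931 to 18019609 exon reads a library, and floors of 3 reads cover counting error only. As alternatives, DESeq2 1.42.0 was run, and limma 3.58.1 was applied to RPKM on the log2 scale with pseudocounts of 1 and of 0.1. Others were different scaling and filters, unique reads, other libraries in the fit, a replicate block and leaving out single libraries. All members are named. Full values were given for members called in the later T cells, up to 12 by size, and for the most abundant of each role; of other lists up to 3 genes each way were named. A gene of the other HIF-inducible genes that this rule names is not reported here. Arnt, Mpc1, Mpc2 and Arrdc4 were named after their values were seen. Members and lists were chosen with earlier results of these data known.

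Promoters came from RefSeq (GRCm38.p6). Members were matched by symbol, Ero1l by its synonym, and of several starts the one nearest to the deposited gene start was used. Slc2a3 and Bnip3l had no entry. Python 3.11.15, pandas 2.3.3, scipy 1.17.1 and matplotlib 3.10.9 were used for tables and plots.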

Additional observations from a re-analysis of the deposited data

How the results depend on the processing

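The count of members lower in later T cells was 20 and ranged from 18 to 24 over the other tools, scalings, filters and fits, and from 16 to 21 when single libraries were left out. The count of higher members was 0, but 1 (Ddit4) with DESeq2, 1 without the filter on low counts, and 0 to 1 without single libraries. In medium alone the lower members were 18, and 3 to 20 without single libraries, and the higher ones 0, or 1 without the filter. After co-culture the higher members were 0, or 1 without the filter and 0 to 1 without single libraries. Between both later groups no member was called, whereas without the filter 2 were higher and 1 lower, with DESeq2 1 was lower, and without single libraries 0 to 1 were higher (Ak4 without replicate 1 and Vegfa without replicate 2 of the co-culture). For the difference of effects, 0 became 1 higher and 1 lower with DESeq2 and 1 higher without the filter. Keratinocytes alone against activated T cells gave 5 higher and 11 lower members, and 1 to 5 and 5 to 13 without single libraries. The cause of these shifts was not tested, but leaving out a library leaves fewer samples. A replicate block was fitted where labels number the replicates. In keratinocytes with and without co-culture the paired fit called 0 members. In 6 numbered libraries it gave 17 lower and 6 higher members in keratinocytes against activated T cells. Of all 12988 genes in that fit, 2593 were lower and 3591 higher. Deviations from the group means correlated between same-numbered libraries with r = 0.558 for both keratinocyte groups and 0.230 for keratinocytes and activated T cells, across genes, which are not independent replicates. With 2 pairs and no label for a batch, the libraries share only a number. No called member changed sign under any alternative. Over all genes, the counts moved with the tool and with single libraries. The 1115 lower and 669 higher genes in later T cells ranged from 1034 to 1669 and from 508 to 1352 over the other tools, scalings, filters and fits, and from 232 to 1175 and from 124 to 643 without single libraries, lowest without replicate 1 of the activated T cells. In medium, 501 and 275 became 484 to 1102 and 201 to 861, and 8 to 670 and 16 to 397 without single libraries, with 34 and 28 without replicate 1 of the activated T cells, 22 and 35 without replicate 1 and 8 and 16 without replicate 2 in medium. After co-culture, 678 and 544 became 665 to 1293 and 396 to 1134, and 132 to 625 and 134 to 506 without single libraries, lowest without replicate 1 of the activated T cells. The 31 genes called between both later groups, all higher after co-culture, became 0 to 123 higher and 0 to 18 lower, and 16 to 48 and 0 to 4 without single libraries. In keratinocytes with co-culture, 0 genes became at most 88 higher and 98 lower by DESeq2, and 107 higher and 1057 lower without replicate 1 of the co-culture. The median of all genes in later T cells moved to -0.16 with library size alone, to -0.10 with limma on log2(RPKM + 1) and to -0.17 with log2(RPKM + 0.1). Depth limits Ak4, Vegfa and P4ha2, which had no read in 1 later group.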

Other observations

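Genes that decide whether pyruvate enters the mitochondria were counted in the later against the activated T cells. Of 11 tested, Dlat and Pdp2 fell and Pdk2 rose, and the median log2 fold change was -0.23, beside 9.4% lower and 5.64% higher over all genes. Pdk2, a kinase that switches pyruvate dehydrogenase off, went from 0.344 and 0.433 RPKM to 4.15 and 2.63 in medium and 7.86 and 4.63 after co-culture (3.70 ± 0.54 (SE) on the log2 scale, edgeR adjusted p = 0.00554). Dlat, the acetyltransferase of the same complex, fell from 26.8 and 18.5 to 7.53 to 8.46 RPKM (adjusted p = 0.0162). Both genes of the mitochondrial pyruvate carrier, Mpc1 and Mpc2, were not called.

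Of 4 tested genes around the glucose-sensing factors, Txnip rose and 3 were not called, beside 5.64% higher and 9.4% lower over all genes. Txnip is known to lower glucose uptake, and it was at 32.1 and 104 RPKM in activated T cells, at 213 and 299 in medium and at 304 and 289.7 after co-culture (2.16 ± 0.52 (SE) on the log2 scale, adjusted p = 0.0299). The related Arrdc4 was at 0.530 and 2.73 RPKM and at 1.73 to 2.65 RPKM later and was not called.

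In the keratinocyte libraries the T-cell markers Cd3d, Cd3e, Cd3g, Cd2 and Lck were read together with Cd4 (11.4 and 43.5 RPKM alone, 15.0 and 84.5 RPKM after co-culture), while Cd8a reached at most 1.16 RPKM, although CD8+ T cells were added. These transcripts were also present in keratinocytes that had not been co-cultured.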
